A study of Mus musculus with 12 samples.

Results

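The complement system was followed in hepatoblasts, Diff. hepatocytes and mature hepatocytes through 34 genes for complement components, lectin pathway proteins, regulators and receptors. The members were taken from a named list and matched by symbol to mouse gene identifiers, a rule that uses no measured value. They are 34 of the 53715 genes in the count table. Of these, 31 had more than 10 counts in at least 1 library and were tested among 17779 genes, while C1rb, C1s2 and C7 did not reach that minimum. All cells came from C57BL/6JOlaHsd mice. Hepatoblasts were embryonic liver progenitors of day E14.5, selected on magnetic columns by the surface marker Dlk1 and lysed without culture, and each isolation pooled several embryonic livers. Diff. hepatocytes were such cells after 4 days on fibronectin in a differentiation medium, which per the study's methods held serum, insulin, transferrin, dexamethasone and Matrigel. Mature hepatocytes came from adult males of 8 to 12 weeks by collagenase perfusion and were also lysed without culture. Each group had 4 biological replicates. Diff. hepatocytes, called the cultured cells below, are the single cultured group, and mature hepatocytes, the adult cells, are the single group of adult males. Culture, age, sex and isolation thus cannot be told apart from the group.

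Complement is a cascade of plasma proteins, most of them secreted by hepatocytes, in which each protease activates the next component. Antibody starts the classical pathway through C1, and sugars bound by mannose-binding lectins, ficolins and collectins start the lectin pathway through the MASP proteases. Both build a convertase from C4 and C2 that cleaves C3, the alternative pathway amplifies that step with factors B and D, and all routes lead to C5 and to the terminal components that insert a pore into membranes. Soluble and membrane-bound regulators stop the cascade on the body's own cells, and small fragments of C3 and C5 signal to myeloid cells through their own receptors.

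Libraries held between 19581551 and 25216977 counts on genes. Values below are CPM, that is counts on the gene relative to all counts of the library, after TMM scaling of library size. Levels are compared between genes as FPKM, that is CPM per kilobase of exon. Sums, shares and ranks of CPM are not scaled by gene length. Dlk1, the selection marker, averaged 3523 CPM in hepatoblasts, 94.2 CPM in the cultured cells and 4.19 CPM in mature hepatocytes, and all 10 hepatocyte markers had counts in each group. Replicate 1 of the hepatoblasts lay apart in markers of other cells, with 2450 summed CPM of 9 erythroid genes against 295 to 485 in the other 3, and it was the lowest hepatoblast library for 20 of the 31 tested members. Replicate 2 of the mature hepatocytes was the highest of its group for 15 members. In bulk RNA, fewer cells of a type and less RNA per cell cannot be told apart. A gene was called where the adjusted p of edgeR's quasi-likelihood fit was under 0.01 and the absolute log2 fold change over 1.

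Complement RNA was highest in the adult cells and lowest in the embryonic ones. The 34 genes summed to between 4128 and 6669 CPM in hepatoblasts, between 10005 and 10840 CPM in Diff. hepatocytes and between 24675 and 26858 CPM in mature hepatocytes, without overlap between the groups. The mean share of all counts was 0.722%, 1.11% and 1.9%. C3 alone made up 60.0% of the hepatoblast sum, 59.8% of the Diff. hepatocyte sum and 46.9% of the adult sum. Single genes moved in both directions, as the plot of levels in the 12 libraries shows.

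**Figure D1:**
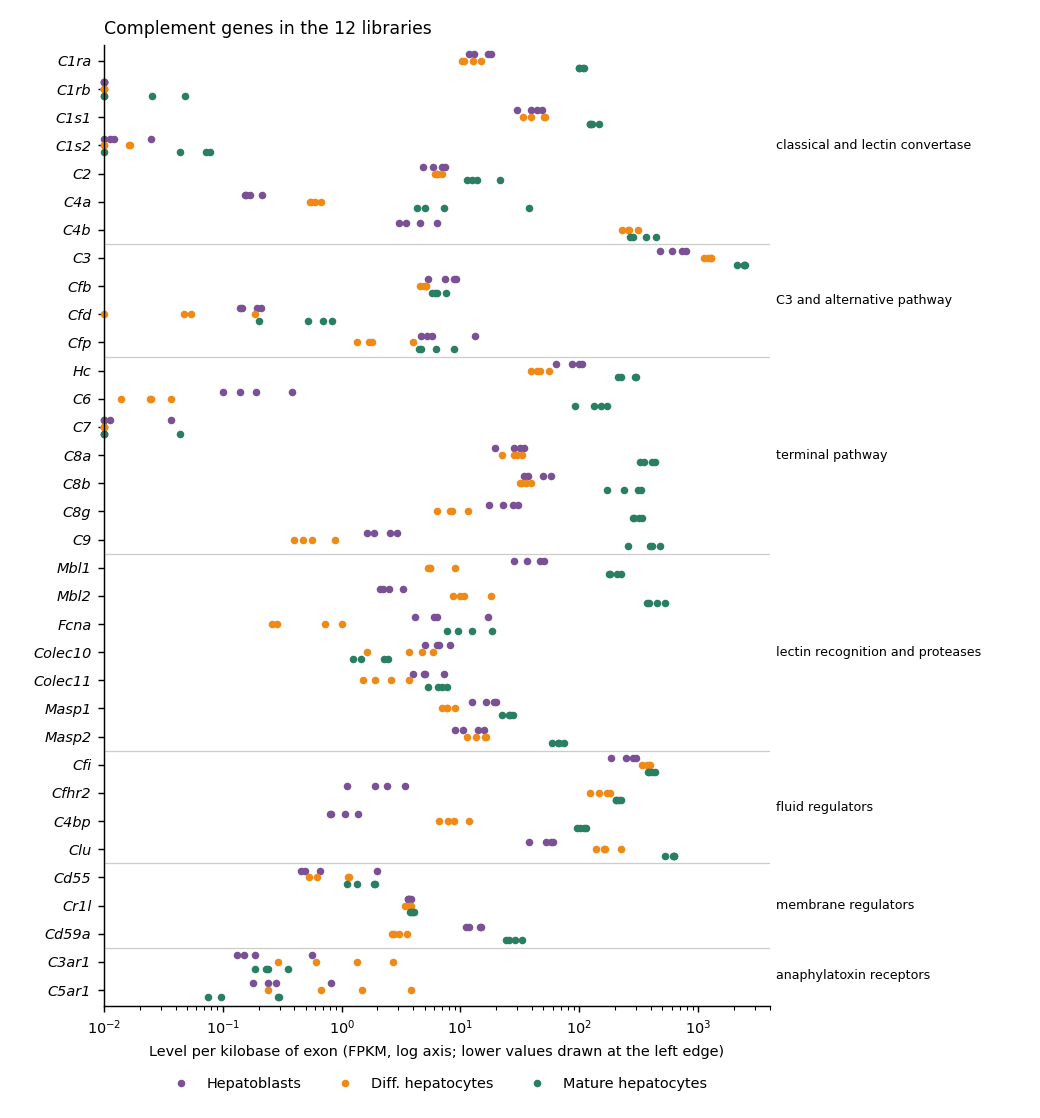
Level of each of the 34 members in FPKM (CPM per kilobase of exon, log axis), 1 point per library, with members grouped by role and values under 0.01 drawn at the left edge. C3 is the highest member in each group, C6 and C9 are at places 29 and 23 among the members in hepatoblasts, 31 and 28 in Diff. hepatocytes, and 13 and 5 in mature hepatocytes, and C1rb, C1s2 and C7 are near 0 throughout.

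In culture, 9 members were called lower and 6 higher. Against hepatoblasts, Diff. hepatocytes had 6 of the 31 tested members higher, or 19.4%, where 14.9% of all tested genes were called higher. The 9 members called lower were 29%, against 14% of all genes. The libraries did not overlap for 8 members on the higher and 11 on the lower side, together 19 of 31, and 57.5% of all tested genes had no overlap. The median log2 fold change of the members was -0.05, and -0.01 over all genes. The genes that rose were C4b, Cfhr2, C4bp, Mbl2, Clu and C3ar1, and those that fell were C6, C8g, C9, Mbl1, Masp1, Fcna, Colec11, Cfp and Cd59a.

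Between hepatoblasts and the adult liver the direction was mostly upward. Mature hepatocytes had 19 members higher, or 61.3%, against 20.1% of all tested genes, and 1 member lower, Colec10, where 24.7% of all genes were called lower. Libraries did not overlap for 21 members on the higher and 1 on the lower side, with 66% of all genes free of overlap. The median log2 fold change was 1.69 for the members and -0.15 for all genes. Library totals in place of TMM moved that median of all genes to -1.0, gave 15 members higher and 2 lower, and left C1s1, C2, Hc and Cd59a uncalled, at 0.85, 0.42, 0.71 and 0.23.

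**Figure D2:**
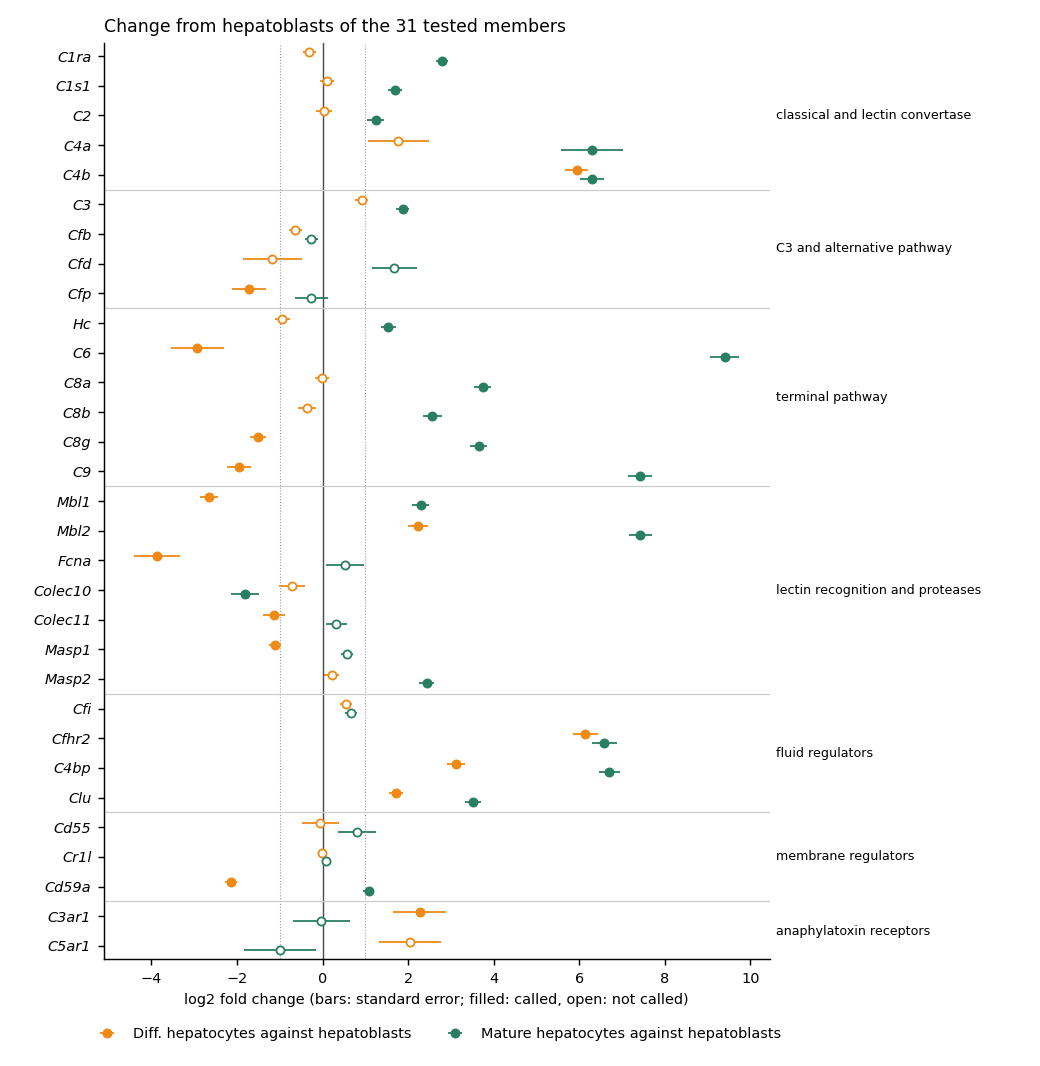
log2 fold change from hepatoblasts of the 31 tested members in Diff. hepatocytes and in mature hepatocytes, with the standard error as bars, filled points for called and open points for uncalled genes, and dotted lines at 1 and -1. C4b and Cfhr2 lie close to 6 in both comparisons, while C6, C8g, C9, Mbl1 and Cd59a lie below -1 in Diff. hepatocytes and above 1 in mature hepatocytes.

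Set directly against mature hepatocytes, Diff. hepatocytes had 21 members lower, or 67.7%, and 15.6% of all tested genes were called lower. Cfd, among the 21, passed the count filter only through mature libraries. The 3 members called higher were Colec10, C3ar1 and C5ar1, that is 9.68%, against 20.2% of all genes. For 24 members each Diff. hepatocyte library lay below each adult one and for 0 members above, and 61.6% of all genes had no overlap. The members' median log2 fold change was -1.80, and 0.09 over all genes. Scaling bears on these backgrounds: with library totals in place of TMM, the calls over all genes went from 2648 higher and 2497 lower to 1985 and 3621 in culture, from 3580 and 4391 to 2007 and 7920 in the adult cells, and from 3586 and 2776 to 5500 and 1776 between culture and the adult cells. The 3 comparisons share their groups, so their values are given side by side and are not independent of each other. With culture against hepatoblasts first, the adult cells against hepatoblasts second and culture against the adult cells last, 8 members were uncalled, higher and lower, 5 were lower, higher and lower, and 3 were higher, higher and lower.

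Of the 5 tested genes of the classical and lectin convertases, all were called higher in the adult cells and 1, C4b, was called higher in culture. Over all tested genes these shares were 20.1% and 14.9%. C1ra and C1s1, the proteases of the C1 complex, averaged 44.8 and 127 CPM in hepatoblasts, 36.1 and 136 CPM in the cultured cells and 309 and 409 CPM in mature hepatocytes. In Diff. hepatocytes neither was called against hepatoblasts, with log2 fold changes of -0.31 ± 0.15 and 0.10 ± 0.16 (standard error). Both were called higher in mature hepatocytes, C1ra by 2.79 ± 0.15 (edgeR adjusted p = 2.68e-09) and C1s1 by 1.69 ± 0.17 (edgeR adjusted p = 7.48e-07). C2, which supplies the protease of the C3 convertase, followed the same course, at 24.3 CPM, 25 CPM and 57.3 CPM. Replicate 2 of the mature hepatocytes held 84.1 CPM of C2 against 43.6 to 53.3 in the others. Without it the adult rise was 0.98 and the deficit of Diff. hepatocytes -0.96, and neither was called. Of the exon bases of C2, 42.8% also belong to the readthrough gene Gm20547 on the same strand, which had 0 counts in each library, so the level of C2 per length may be understated.

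C4b encodes complement C4, the convertase subunit that is deposited on the target. Its gene (ENSMUSG00000073418) lies on chromosome 17 from 34728380 to 34743882 of GRCm38. Hepatoblast libraries held 19.7, 17.2, 25.9 and 36.0 CPM, Diff. hepatocytes 1465, 1771, 1307 and 1496 CPM, and mature hepatocytes 1610, 2543, 2095 and 1524 CPM. Each Diff. hepatocyte library was far above all hepatoblasts, and their range overlapped that of the adult cells. C4b thus rose 61.2-fold in culture, or 5.94 ± 0.27 on the log2 scale (standard error; edgeR adjusted p = 2.13e-09). In mature hepatocytes the change was 6.30 ± 0.28 (edgeR adjusted p = 3.36e-10), and Diff. hepatocytes differed from them by -0.36 ± 0.22 (edgeR adjusted p = 0.164), a value that became 0.15 with library totals in place of TMM.

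C4a, the neighbouring paralogue at 34809092 to 34823464, took another course. Its hepatoblast libraries held 1.32, 0.955, 0.972 and 1.06 CPM, and the Diff. hepatocytes held 3.46, 4.13, 3.73 and 3.35 CPM. Mature hepatocytes had 45.5, 235, 26.7 and 31.4 CPM, with replicate 2 at more than all the others together. All Diff. hepatocyte libraries were above the hepatoblasts and under the adult cells. The increase in culture, 1.77 ± 0.71, was not called (edgeR adjusted p = 0.0458), but was called without that adult library, at 1.75 (edgeR adjusted p = 8.6e-06), and from the 8 libraries of the 2 groups alone, at 1.74 (edgeR adjusted p = 3.14e-05). The adult increase was 6.29 ± 0.72 (edgeR adjusted p = 3.17e-06) and 4.98 without replicate 2. Against mature hepatocytes Diff. hepatocytes were lower by -4.52 ± 0.64 (edgeR adjusted p = 3.62e-05), or -3.23 without it. Per length, C4b exceeded C4a by 16.2 to 37.0 times in hepatoblasts, 382 to 486 times in Diff. hepatocytes and 11.8 to 85.4 times in mature hepatocytes. C4a and C4b share 19.7% and 22.7% of their 75-base sequences, so reads of one may have been lost or assigned to the other. C1ra shares 42.4% of its sequences with other genes, mainly C1rb, which had 0 to 2 counts per library, and C1s1 shares 13% with C1s2, which had 0 to 3.

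C3, on which all pathways converge, was the most abundant member in each group. Ranked by mean CPM among all genes, without regard to gene length, it was at place 14 in hepatoblasts, 14 in the cultured cells and 8 in mature hepatocytes. The hepatoblast libraries held 2459, 3074, 3772 and 4062 CPM, the Diff. hepatocytes 6656, 6223, 6545 and 5794 CPM, and the mature hepatocytes 12859.5, 11001, 12436 and 12515 CPM. The groups formed 3 separate steps without overlap. From hepatoblasts, C3 was 1.89-fold higher in Diff. hepatocytes, at a log2 fold change of 0.92 ± 0.15 (edgeR adjusted p = 0.000199), under the fold change threshold. The adult change was 1.87 ± 0.16 (edgeR adjusted p = 1.69e-07) and was called. The difference of Diff. from mature hepatocytes was -0.95 ± 0.15 (edgeR adjusted p = 0.000115) and was not called. Values next to the threshold changed sides with single libraries: the increase in culture was 1.02 and called without hepatoblast replicate 4, and the deficit against mature hepatocytes was -1.0 and called without mature replicate 2.

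The sequence before the C3 start is shown because it carries a C/EBP motif, a binding pattern of liver and acute-phase factors. It covers 150 bases before the RefSeq start, chr17:57228137-57228286 of GRCm38.p6 on the minus strand, and capitals mark the match to TTGCNNAA.
C3: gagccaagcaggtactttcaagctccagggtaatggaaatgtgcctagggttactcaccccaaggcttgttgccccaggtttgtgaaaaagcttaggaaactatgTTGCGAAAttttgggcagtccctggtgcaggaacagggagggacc
Searched on both strands, the motif occurs in 5.46% of the 32851 RefSeq promoters in this window, and in 3 of the 26 members that have an entry, C1rb, C3 and C9.

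The alternative pathway genes were low in CPM and did not follow C3. Cfb, the factor B gene, was at 21.8 CPM in hepatoblasts, 14.0 CPM in the cultured cells and 18.2 CPM in mature hepatocytes, and was called in none of the 3 comparisons. Its log2 fold changes were -0.64 ± 0.15, -0.26 ± 0.15 and -0.38 ± 0.15, and with library totals in place of TMM the adult change was called at -1.09 and the last one became 0.14. As 79.5% of its exon bases also belong to Gm20547, the level of Cfb per length may be understated. Over the other bases alone, the same counts would give means of 37.58, 24.15 and 31.43 FPKM in the 3 groups, in the same order. The means over all exon bases were 7.704, 4.95 and 6.441 FPKM. Cfp, the gene of properdin, which stabilises the alternative convertase, held 23.0, 8.12, 9.10 and 10.1 CPM in hepatoblasts, 6.87, 2.97, 2.35 and 3.15 CPM in the cultured cells and 10.9, 8.09, 15.2 and 7.76 CPM in mature hepatocytes. Each Diff. hepatocyte library was below those of both other groups. Cfp fell in culture by 1.71 on the log2 scale (standard error 0.40, edgeR adjusted p = 0.00232). It was also lower than in mature hepatocytes, at -1.45 ± 0.40 (edgeR adjusted p = 0.00623), but not called there without any 1 of Diff. replicates 2, 3 and 4 or mature replicates 1 and 3, at -1.43 to -1.21, nor with library totals in place of TMM, at -0.92 (edgeR adjusted p = 0.0727), or at 10 counts or more in every library, at -1.34 (edgeR adjusted p = 0.0121). Cfd, the gene of factor D and best known from fat tissue, had 0 to 12 counts per library. Only mature replicates 2 and 3, with 12 and 11 counts, took it past the filter. The filter thus favoured differences with mature hepatocytes on the higher side, and its calls cannot be read as independent of that. Cfd was lower in Diff. than in mature hepatocytes, at -2.86 ± 0.64 (edgeR adjusted p = 0.00151), and at -3.88 without Diff. replicate 1. The adult difference from hepatoblasts, 1.68 ± 0.53, was not called (edgeR adjusted p = 0.0122), but was without Diff. replicates 1 or 3 or mature replicate 4, at 1.68 to 1.95.

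Of all roles, the terminal pathway had the largest median difference between cultured and adult cells. All 6 tested genes of this role were called higher in mature hepatocytes than in hepatoblasts and all 6 lower in Diff. than in mature hepatocytes, with medians of 3.70 and -4.46 on the log2 scale. Such calls were made for 20.1% and 15.6% of all tested genes. Against hepatoblasts, 0 rose and 3 fell in Diff. hepatocytes, with a median of -1.23, where 14.9% of all genes rose and 14% fell. C7, which links C5b-6 to the membrane, stayed at 0 to 3 counts in each library.

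C6, the first component to join C5b, changed most of all members. Its gene (ENSMUSG00000022181) is on chromosome 15 from 4727175 to 4814967. Hepatoblasts held 1.35, 0.358, 0.680 and 0.497 CPM, mature hepatocytes held 477, 610, 539 and 328 CPM, and the Diff. hepatocyte libraries had 3, 2, 2 and 1 counts. Every adult library was far above every hepatoblast library, and the cultured cells were at the limit of detection. From hepatoblasts to mature hepatocytes the fitted change was 9.40 ± 0.34 (edgeR adjusted p = 5.52e-11). C6 was called lower in Diff. hepatocytes than in hepatoblasts (edgeR adjusted p = 0.00114) and than in mature hepatocytes (edgeR adjusted p = 6.69e-11). Pooled over each group and scaled by library size, its 90 counts in hepatoblasts were 7.99 times the 8 counts in Diff. hepatocytes, with an exact 95% interval of 3.88 to 19.1. The 30985 counts in mature hepatocytes were 5447 times as many, with an interval of 2764 to 12618. These intervals cover counting error only.

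C9, which polymerises into the pore, showed the same shape at a higher level. It measured 4.77, 4.21, 6.57 and 7.52 CPM in hepatoblasts, 2.25, 1.21, 1.02 and 1.43 CPM in the cultured cells and 1016, 1222, 1055 and 660 CPM in mature hepatocytes. The 3 groups did not overlap, with Diff. hepatocytes lowest. C9 fell by 1.96 in culture (log2 scale, standard error 0.28, edgeR adjusted p = 5.2e-05) and was 7.42 ± 0.29 higher in the adult cells (edgeR adjusted p = 1.26e-10). Diff. hepatocytes held 0.149% of the adult mean.

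The window before the C9 start, chr15:6445196-6445345 of GRCm38.p6 on the plus strand, is shown for the member with the largest difference between cultured and adult cells after C6. Capitals again mark a match to the C/EBP letters TTGCNNAA, here 132 to 125 bases before the RefSeq start, and 45 to 38 bases before it in C3.
C9: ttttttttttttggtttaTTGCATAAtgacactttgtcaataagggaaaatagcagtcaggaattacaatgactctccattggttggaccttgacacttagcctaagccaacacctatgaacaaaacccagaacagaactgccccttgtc
Both windows match the motif, while C3 was 1.89-fold higher in culture and uncalled, and C9 fell.

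The 3 chains of C8, products of separate genes, were not kept in step. C8a held 71.4, 102, 116 and 125 CPM in hepatoblasts, 81.1, 120, 102 and 109 CPM in the cultured cells and 1277, 1588, 1487 and 1175 CPM in mature hepatocytes. Its hepatoblast and Diff. hepatocyte libraries overlapped, and both lay far under the adult ones. The change in culture was -0.01 ± 0.17 (edgeR adjusted p = 0.969) and the adult one 3.74 ± 0.19 (edgeR adjusted p = 1.26e-09). C8b, at 114 CPM, 88.8 CPM and 672 CPM, had -0.36 ± 0.21 in culture (edgeR adjusted p = 0.147) and 2.56 ± 0.22 in the adult cells (edgeR adjusted p = 1.59e-07). C8g held 26.1, 33.9, 41.5 and 45.7 CPM in hepatoblasts, 9.56, 17.2, 12.8 and 12.2 CPM in the cultured cells and 508, 433, 427 and 478 CPM in mature hepatocytes. For this gene the cultured cells were below all hepatoblasts. It fell by 1.51 in culture (log2 scale, standard error 0.19, edgeR adjusted p = 1.48e-05) and was 3.65 ± 0.20 higher in mature hepatocytes (edgeR adjusted p = 2.24e-09). Per length, C8a stood at 0.568 to 0.762 of C8b in hepatoblasts, 0.709 to 0.850 in Diff. hepatocytes and 1.31 to 1.88 in mature hepatocytes.

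Hc, the mouse gene of C5, averaged 556 CPM in hepatoblasts, 291 CPM in the cultured cells and 1614 CPM in mature hepatocytes. The 3 groups did not overlap. Its decrease in culture, -0.94 ± 0.17 (edgeR adjusted p = 0.000432), missed the fold change threshold, and was called at -1.06 without hepatoblast replicate 1 and at -1.06 without Diff. replicate 2. The decrease was also called at -1.25 with library totals in place of TMM, and at -1.04 with totals without the 50 most abundant genes. Against mature hepatocytes Diff. hepatocytes were lower by -2.47 ± 0.18 (edgeR adjusted p = 7.41e-08), and held 18% of the adult mean.

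Among the lectin pathway genes the recognition molecules diverged from each other. In Diff. hepatocytes, 1 of the 7 rose against hepatoblasts, 4 fell and 2 were not called, and 6 were lower and 1 higher than in mature hepatocytes. Among all tested genes, 14.9% rose and 14% fell against hepatoblasts, and 15.6% were lower and 20.2% higher than in mature hepatocytes. The 2 mannose-binding lectins moved in opposite directions in culture. Mbl1 (ENSMUSG00000037780, chromosome 14 from 41151458 to 41159601) held 43.9, 57.4, 72.9 and 78.9 CPM in hepatoblasts, 14.1, 8.74, 8.71 and 8.38 CPM in the cultured cells and 350, 280, 328 and 283 CPM in mature hepatocytes. The cultured libraries were below all others. Mbl2 (ENSMUSG00000024863, chromosome 19 from 30232942 to 30239687) held 2.29, 2.42, 2.75 and 3.55 CPM in hepatoblasts, 9.47, 19.7, 10.8 and 11.7 CPM in the cultured cells and 489, 424, 404 and 577 CPM in mature hepatocytes. Here the cultured libraries lay above all hepatoblasts and far below the adult cells.

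Mbl1 fell by 2.66 (log2 scale, standard error 0.21, edgeR adjusted p = 1.97e-07) and Mbl2 rose by 2.23 ± 0.23 (edgeR adjusted p = 2.73e-06) in Diff. hepatocytes. In mature hepatocytes both were higher than in hepatoblasts, Mbl1 by 2.29 ± 0.20 (edgeR adjusted p = 2.22e-07) and Mbl2 by 7.43 ± 0.27 (edgeR adjusted p = 5.74e-11). Diff. hepatocytes were lower than mature hepatocytes by similar amounts, -4.95 ± 0.23 and -5.19 ± 0.24. The ratio of Mbl1 to Mbl2 per length was 13.3 to 18.4 in hepatoblasts, 0.308 to 1.04 in Diff. hepatocytes and 0.340 to 0.563 in mature hepatocytes. Hepatoblasts therefore held mostly Mbl1, and the ranges of the other groups overlapped.

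The windows before the RefSeq starts of both lectin genes are shown because the pair diverged in culture. They are chr14:41151306-41151455 for Mbl1 and chr19:30232778-30232927 for Mbl2, both on the plus strand of GRCm38.p6, and capitals mark the longest run of identical bases between them, 13 in length.
Mbl1: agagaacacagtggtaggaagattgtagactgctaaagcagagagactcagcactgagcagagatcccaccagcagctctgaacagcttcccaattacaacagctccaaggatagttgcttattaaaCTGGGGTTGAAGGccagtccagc
Mbl2: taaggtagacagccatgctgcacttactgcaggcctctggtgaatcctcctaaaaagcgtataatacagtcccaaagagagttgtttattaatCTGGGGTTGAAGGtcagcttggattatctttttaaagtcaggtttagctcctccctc
The run begins 23 bases before the start in Mbl1 and 57 bases before it in Mbl2. Laid over each other at that offset without gaps, the windows share 55 of 116 bases, or 47.4%.

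Masp1 and Masp2, the proteases that the lectins carry, also changed their balance. Masp1 held 122, 162, 188 and 196 CPM in hepatoblasts, 89.1, 68.1, 76.1 and 76.2 CPM in the cultured cells and 218, 271, 255 and 253 CPM in mature hepatocytes. The 3 groups were separate, with the cultured cells lowest. It fell by 1.11 in culture (log2 scale, standard error 0.14, edgeR adjusted p = 1.65e-05), and its adult difference of 0.58 ± 0.14 (edgeR adjusted p = 0.00213) was not called and became -0.26 with library totals. Masp2, at 40.9 CPM, 47.4 CPM and 221 CPM, was not called in culture (0.21 ± 0.17, edgeR adjusted p = 0.287; -0.09 with library totals) and was called higher in the adult cells (2.43 ± 0.17, edgeR adjusted p = 3.17e-08). Per length, Masp1 stood at 1.27 to 1.56 times Masp2 in hepatoblasts, 0.424 to 0.792 in Diff. hepatocytes and 0.336 to 0.437 in mature hepatocytes. On the opposite strand, Tardbp covers 54.9% of the exon bases of Masp2, and it averaged 213 CPM in hepatoblasts, 129 CPM in culture and 76.0 CPM in the adult cells. The strand setting of the counts is not given in the sources used here. Over the exon bases outside Tardbp alone, the same counts would put mean Masp2 in hepatoblasts at 27.42 FPKM in place of 12.35. Mean Masp1 there was 17.01 FPKM, so which of the 2 was higher in hepatoblasts depends on how shared reads were counted. Whether shared reads were lost from Masp2, or Tardbp reads added to it, was not tested.

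**Figure D3:**
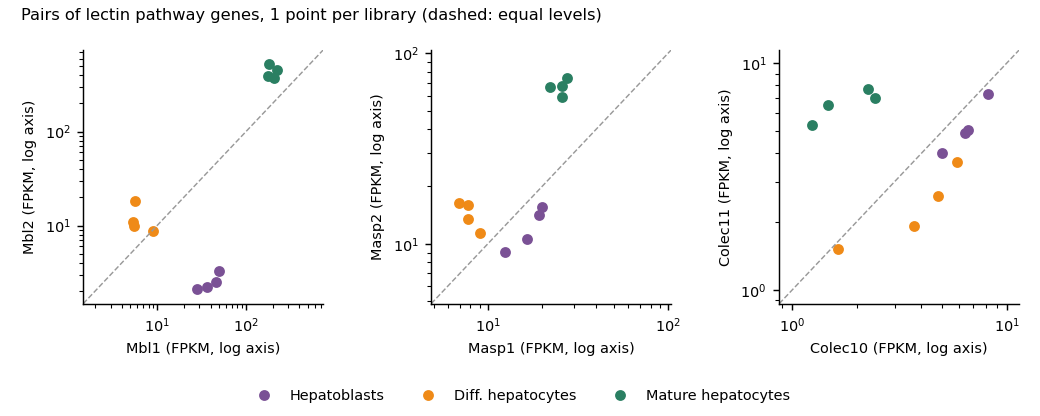
Levels of paired lectin pathway genes in FPKM on log axes, 1 point per library, with a dashed line at equal levels. Hepatoblasts lie on the Mbl1 and Masp1 side of the line and mature hepatocytes on the Mbl2 and Masp2 side, and for the collectins the adult libraries alone lie on the Colec11 side. Masp2 is scaled by all its exon bases, including those shared with Tardbp.

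Colec10 and Colec11 encode collectins that can pair in 1 molecule. Colec10 was the single member called lower in mature hepatocytes than in hepatoblasts. Its libraries held 23.0, 29.2, 37.5 and 30.2 CPM in hepatoblasts, 7.52, 27, 16.9 and 21.9 CPM in the cultured cells and 5.69, 6.74, 10.3 and 11.2 CPM in mature hepatocytes. Adult libraries were below all hepatoblasts, and Diff. hepatocytes overlapped with both. The 9 stellate and mesenchymal markers, all with counts in each group, summed to between 1249 and 2257 CPM in hepatoblasts, between 1280 and 2967 CPM in culture and between 66.8 and 97.8 CPM in the adult cells. In the adult cells 7 of them were called lower and 1 higher than in hepatoblasts, against 24.7% and 20.1% of all tested genes. Single markers moved apart in culture: mean Reln went from 864 to 93.0 CPM and mean Col1a1 from 300 to 694.5 CPM. The part of stellate and mesenchymal cells in the Colec10 values was not tested. The adult difference was -1.82 ± 0.33 (edgeR adjusted p = 0.000244). Diff. hepatocytes were called higher than mature hepatocytes at 1.11 ± 0.33 (edgeR adjusted p = 0.00966), and this call was lost on leaving out any single library except Diff. replicate 1 and hepatoblast replicate 1, at 0.85 to 1.26. Colec11 fell in culture by 1.14 (log2 scale, standard error 0.26, edgeR adjusted p = 0.0019), though not past the threshold without hepatoblast replicate 3 or Diff. replicate 1, at -0.94 and -0.97. It was lower than in mature hepatocytes by -1.46 ± 0.26 (edgeR adjusted p = 0.000264), but not called with library totals in place of TMM, at -0.93. The ratio of Colec11 to Colec10 per length was 0.770 to 0.897 in hepatoblasts, 0.520 to 0.927 in Diff. hepatocytes and 2.89 to 4.45 in mature hepatocytes.

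Fcna, the gene of ficolin A, lost the largest part of its level in culture among the lectin genes. It held 23.5, 5.70, 8.81 and 8.19 CPM in hepatoblasts, 1.38, 0.990, 0.355 and 0.394 CPM in the cultured cells and 17.1, 10.5, 25.5 and 13.2 CPM in mature hepatocytes. All cultured libraries were under all others. The change from hepatoblasts was -3.86 ± 0.54 (edgeR adjusted p = 3.83e-05) and -3.24 without hepatoblast replicate 1, and that from mature hepatocytes -4.38 ± 0.55 (edgeR adjusted p = 1.07e-05). The adult difference from hepatoblasts was 0.52 ± 0.44 (edgeR adjusted p = 0.295), and was called at 1.13 without that hepatoblast library. Ficolin A is also made by macrophages, whose marker sums are given with the receptors.

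Soluble regulators had the largest share of members called higher in culture. In Diff. hepatocytes 3 of the 4 were called higher than in hepatoblasts, with a median of 2.42 on the log2 scale, and in mature hepatocytes the same count was reached with a median of 5.05. For comparison, 14.9% of all tested genes were called higher in culture and 20.1% in the adult cells. Cfi, the protease that inactivates C3b and C4b, was already the second member by FPKM in hepatoblasts, with 254 FPKM against 371 in Diff. and 402 in mature hepatocytes. It was called in no comparison, at 0.55 ± 0.14, 0.66 ± 0.14 and -0.12 ± 0.13, and with library totals the adult difference became -0.17 and the last one 0.41.

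Cfhr2, a soluble complement protein, resembled C4b. Its libraries held 3.71, 2.15, 4.70 and 6.6 CPM in hepatoblasts, 238, 354, 281 and 332 CPM in the cultured cells and 434, 395, 417 and 397 CPM in mature hepatocytes. The cultured libraries were all far above the highest hepatoblast library and all below the lowest adult one. In culture Cfhr2 rose 70.3-fold, by 6.14 ± 0.29 on the log2 scale (edgeR adjusted p = 2.25e-09), and in mature hepatocytes by 6.58 ± 0.29 (edgeR adjusted p = 3.31e-10). The difference between the latter groups was -0.45 ± 0.22 (edgeR adjusted p = 0.0955) and became 0.08 with library totals. Of its 75-base sequences, 21.3% occur in other genes, with the largest part, 16%, in Gm16332.

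The bases before its start, chr1:139858700-139858849 of GRCm38.p6 on the minus strand, are shown as those of the member that rose most in culture. Capitals mark the HNF1 motif GTTAAT, read here on the other strand as ATTAAC.
Cfhr2: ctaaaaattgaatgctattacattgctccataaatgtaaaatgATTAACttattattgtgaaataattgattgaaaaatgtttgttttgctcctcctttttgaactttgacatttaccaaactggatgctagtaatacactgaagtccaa
The motif is present in 3.71% of the 32851 promoters, and in 5 of the 26 members with an entry, Hc, C8a, Cfp, Cfhr2 and C4bp. Cfhr2 and C4bp rose in culture, Cfp fell, and Hc and C8a were not called. Of the other motifs searched on both strands, the interferon-gamma type TTCNNNGAA was found in C1rb and Masp2 (4.09% of all promoters), the interferon-response letters GAAANNGAA in C5ar1 (3.95%), TATAAA in C7 (7.57%) and the HNF4 letters CAAAGTCCA in 0 members (0.271%). None of the printed matches overlapped a match of another of these motifs.

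C4bp, which binds C4b as a cofactor of factor I, held 5.35, 5.43, 7.16 and 9.28 CPM in hepatoblasts, 52.6, 44.3, 59.1 and 79.1 CPM in the cultured cells and 682, 765, 743 and 644 CPM in mature hepatocytes. The 3 groups were far apart, and the cultured cells reached 8.30% of the adult mean. It rose by 3.11 ± 0.21 in culture (edgeR adjusted p = 4.52e-08) and by 6.70 ± 0.24 in the adult cells (edgeR adjusted p = 4.67e-11). Clu, or clusterin, which keeps the terminal complex out of membranes, held 130, 207, 198 and 181 CPM in hepatoblasts, 768, 553, 562 and 478 CPM in the cultured cells and 2159, 2145, 1812 and 2095 CPM in mature hepatocytes. Its groups also formed 3 steps. It rose by 1.72 ± 0.17 (edgeR adjusted p = 1.66e-06) and by 3.52 ± 0.18 (edgeR adjusted p = 1.41e-09), and Diff. hepatocytes were at 28.8% of the adult mean. The 7 bile duct markers, all with counts in each group, summed to between 26.9 and 35.7 CPM in hepatoblasts, between 92.7 and 232 CPM in culture and between 37.4 and 66.0 CPM in the adult cells. The stellate sums given with Colec10 were 2967, 1489, 2042 and 1280 CPM in the 4 Diff. hepatocyte libraries, the same order as Clu. The other groups did not share this order. In hepatoblasts the stellate sum was highest in replicate 3 and Clu in replicate 2. In mature hepatocytes the stellate sum was highest in replicate 3, where Clu was lowest. The bile duct sums of the Diff. hepatocyte libraries, 232.5, 92.72, 117.9 and 102.5 CPM, also had another order than Clu. The part of these cells in the Clu values was not tested.

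The membrane regulators had little in common. Cd59a, which blocks the assembly of C9, held 20.1, 21.5, 26.6 and 26.9 CPM in hepatoblasts, 5.49, 4.78, 6.40 and 4.98 CPM in the cultured cells and 51.7, 46.1, 43.4 and 60.2 CPM in mature hepatocytes. No library of any group overlapped with another group, and the cultured cells were lowest. Cd59a fell in culture by 2.13 (log2 scale, standard error 0.14, edgeR adjusted p = 4.87e-08). In mature hepatocytes it rose by 1.08 ± 0.13 (edgeR adjusted p = 6.6e-06), a change that was 0.97 and uncalled without mature replicate 4. Cr1l, also known as Crry and a rodent inhibitor of the C3 convertase, stayed between 35.6 and 42.4 CPM in all 12 libraries. Its log2 fold changes were -0.01 ± 0.07, 0.08 ± 0.07 and -0.09 ± 0.07, and with library totals the adult value was -0.77 and the last one 0.44. Cd55, which dissociates convertases, had 9.54 CPM in hepatoblast replicate 1 and 2.19 to 3.17 CPM in the other 3. It was called in no comparison, but without that library the adult difference was 1.54 and called (edgeR adjusted p = 0.00053).

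The receptors of the small fragments behaved unlike the secreted components. C3ar1, the C3a receptor, held 2.42, 0.567, 0.648 and 0.795 CPM in hepatoblasts, 11.7, 5.81, 1.24 and 2.61 CPM in the cultured cells and 1.51, 1.03, 0.992 and 0.807 CPM in mature hepatocytes. C5ar1, the C5a receptor, held 2.1, 0.717, 0.615 and 0.464 CPM, then 9.94, 3.79, 0.622 and 1.73 CPM, and 0.754, 0.193, 0.759 and 0.248 CPM. Replicate 1 of the Diff. hepatocytes was highest for both, replicate 3 lowest, and the groups overlapped.

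C3ar1 was called higher in Diff. hepatocytes than in hepatoblasts, at 2.27 ± 0.62 (edgeR adjusted p = 0.00663), and than in mature hepatocytes, at 2.30 ± 0.65 (edgeR adjusted p = 0.00698). C5ar1 was called against mature hepatocytes, at 3.03 ± 0.82 (edgeR adjusted p = 0.00528), and not against hepatoblasts, at 2.04 ± 0.72 (edgeR adjusted p = 0.0259). Without Diff. replicate 1 these 4 values were 1.54, 1.58, 2.06 and 1.07, and none was called. The first also lost its call without hepatoblast replicates 2, 3 or 4, Diff. replicate 2 or mature replicates 2 or 3, at 2.04 to 2.26, and was 3.01 without hepatoblast replicate 1. The second lost it without Diff. replicate 2 or any single mature library, at 2.19 to 2.5, and the third without any single mature library, at 2.77 to 3.34. For C5ar1 against hepatoblasts, a call was gained without hepatoblast replicate 1, at 2.75, or Diff. replicate 3, at 2.40.

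Markers of blood cells varied between the same libraries. The 10 macrophage and Kupffer cell markers all had counts in each group and summed to 139, 71.6, 23.0 and 36.6 CPM in the 4 Diff. hepatocyte libraries, to between 83.9 and 354 CPM in hepatoblasts and to between 124 and 245 CPM in mature hepatocytes. The 8 granulocyte markers summed to 157, 85.8, 7.55 and 25.7 CPM in Diff. hepatocytes, to between 32.5 and 468 CPM in hepatoblasts and to between 0.449 and 1.30 CPM in mature hepatocytes, where Ly6g was at 0. Both sums ranked the Diff. hepatocyte libraries in the order of C3ar1, C5ar1 and Fcna. Fcna had 8 counts in each of replicates 3 and 4, so its order between these rests on library size. Both marker sums were also highest in replicate 1 of the hepatoblasts, where Cfp, Fcna, Cd55, C3ar1 and C5ar1 were highest as well. The part of these cells in the values was not tested.

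**Figure D4:**
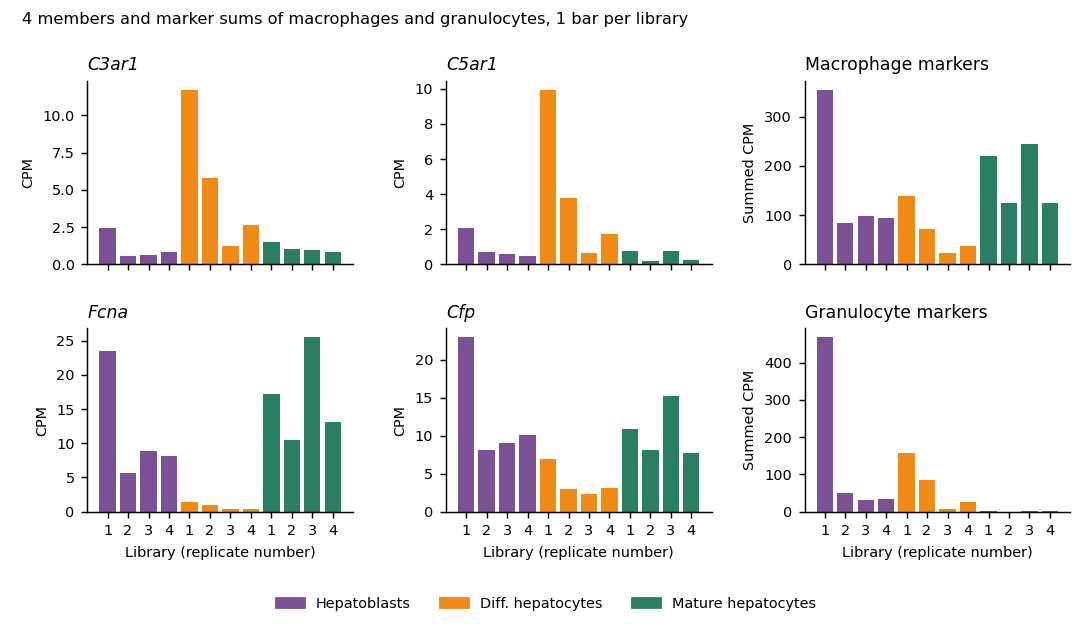
CPM of C3ar1, C5ar1, Fcna and Cfp, and summed CPM of 10 macrophage and 8 granulocyte markers, with 1 bar per library. In Diff. hepatocytes both receptors, Fcna and both marker sums fall in the order of replicates 1, 2, 4 and 3, with Fcna at 8 counts in each of the last 2. Fcna and Cfp are low in all 4 Diff. hepatocyte libraries.

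How near the cultured cells came to the adult level depended on the member. Mean CPM in Diff. hepatocytes, as a percentage of the mature mean, was 94.1% for Cr1l, 92.2% for Cfi, 77.7% for C4b, 76.8% for Cfb and 73.4% for Cfhr2. C3 stood at 51.7% and Clu at 28.8%. C8g was at 2.80%, Mbl2 at 2.73% and Mbl1 at 3.22%, and C9 and C6 were under 1%. Mbl1, C8g, C9, C6 and Cd59a were called lower in culture and higher in the adult cells. For these, the hepatoblasts were nearer to the adult level than the cells grown from them, with 20.4%, 7.97%, 0.584%, 0.148% and 47.2%. Hepatoblasts were also nearer for other members, among them Fcna, at 69.66% against 4.708% in culture, Cfp, Masp1, Colec11, Hc, C8b and C1ra. C4b, Cfhr2, C3 and Clu were among the members nearer in culture.

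**Figure D5:**
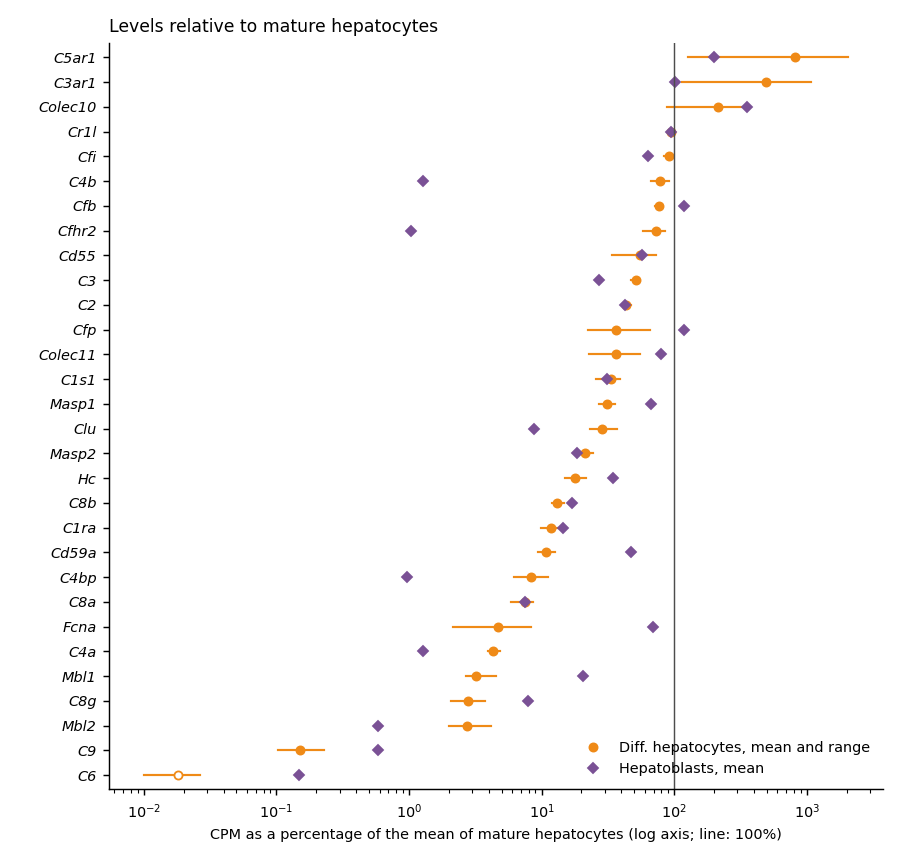
Mean CPM of 30 tested members in Diff. hepatocytes (circles, with the range of 4 libraries as a line) and hepatoblasts (diamonds) as a percentage of the mean of mature hepatocytes, on a log axis with a line at 100%. Cfd is left out because of its low counts, and the open circle of C6 rests on 1 to 3 counts per library. C4b and Cfhr2 lie near 1% in hepatoblasts and above 70% in Diff. hepatocytes.

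A further 23 complement genes outside the list were read for comparison, of which 21 were tested. Diff. hepatocytes had 6 higher and 3 lower than hepatoblasts, or 28.6% and 14.3%, against 14.9% and 14% of all tested genes. Compared with mature hepatocytes they had 0 higher and 12 lower, or 0% and 57.1%, against 20.2% and 15.6% of all genes. Mature hepatocytes had 11 higher and 1 lower than hepatoblasts, or 52.4% and 4.76%, against 20.1% and 24.7% of all genes. Median log2 fold changes of the 21 genes were 0.05, -1.50 and 1.25 in that order. At 10 counts or more in every library these counts were 3 and 0, 0 and 6, and 7 and 0. Serping1, the C1 inhibitor, rose from a mean of 110 CPM in hepatoblasts to 488 CPM in Diff. and 1026 CPM in mature hepatocytes (log2 fold changes 2.15 ± 0.14 and 3.23 ± 0.15). Vtn, or vitronectin, another inhibitor of the terminal complex, was at 1147 CPM, 1119 CPM and 3157 CPM, with -0.04 ± 0.15 in culture and 1.46 ± 0.15 in the adult cells. Cd59b, a second gene of the C9 inhibitor, was lower in Diff. hepatocytes than in hepatoblasts by -3.20 ± 0.43 (edgeR adjusted p = 2.73e-05), beside the fall of Cd59a. Its value rests on few reads, with 2, 1, 3 and 6 counts in the Diff. hepatocyte libraries and 28, 42, 42 and 50 in the hepatoblasts. The C1q genes C1qa, C1qb and C1qc, which macrophages express, were called in no comparison, with group means between 8.70 and 20.5 CPM.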

How the data were processed

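Poly(A) RNA was sequenced as strand-specific libraries with single reads of 75 bases. Per the study's methods and the submitters' processing notes, the authors checked reads with FastQC 0.11.2, aligned them with STAR 2.5.2b to GRCm38 with Ensembl genes and deposited raw read counts per gene. The notes also name Picard 2.10.2 and DESeq2 1.22.2. The strand setting of the counting is not given in the sources used here.

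The counts of the 12 libraries were fitted together with edgeR 4.0.16 (R 4.3.3), with group as the only term, TMM factors, the quasi-likelihood test and Benjamini-Hochberg adjustment over the 17779 genes that exceeded 10 counts in at least 1 library. The procedure was tested on simulated data. Calls required adjusted p values under 0.01 and a log2 fold change beyond 1 in size. FPKM is CPM after TMM divided by the kilobases of the exon union in GENCODE M21. Promoter sequences are from RefSeq on GRCm38.p6, and 26 of the 34 members had an entry. A count of 0 allows up to 3 counts, and such limits cover counting error only. Replicates are labelled as biological. An exact permutation test of 4 against 4 libraries cannot go below p = 0.0286.

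The rule for the members uses no measured value, but the members and the gene lists were chosen with earlier results of these data known. All members may be named. Values by library are given for the member with the highest FPKM and for the largest changes in each role and for members whose direction differed between comparisons, and other genes come from the lists of other complement genes and of cell type markers. Alternatives were DESeq2 1.42.0, its size factors, library totals, other filters and thresholds, a replicate block, near-identical pairs summed, the libraries of 2 groups only, and each library left out in turn. The values of 1 gene among the other complement genes are not reported here.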

Additional observations from a re-analysis of the deposited data

Results flagged for a closer look

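In groups of 4 libraries, 7 of the 92 tested sets of member values had a highest library whose gap to the next, divided by the range of the group, exceeded Dixon's critical value for 4 libraries. For independent and normally distributed values, chance alone would give such a gap in about 1 of 20 groups, or 4.6 here. The members share their libraries and CPM is not on a log scale, so this number is only a rough guide.

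In replicate 1 of the hepatoblasts, 4 members stood apart. Cfp was at 22.96 CPM with the next library at 10.1, Cd55 at 9.545 CPM with the next at 3.17, C3ar1 at 2.419 CPM with the next at 0.795, and C5ar1 at 2.096 CPM with the next at 0.717. The same library held 354 summed CPM of macrophage markers and 468 of granulocyte markers, against at most 98.1 and 51.1 in the other 3. Whether these cells account for the values was not tested.

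In replicate 2 of the mature hepatocytes, C4a was at 235 CPM with the next library at 45.5, and C1s1 at 463.1 CPM with the next at 398. In replicate 1 of the Diff. hepatocytes, Mbl1 was at 14.14 CPM with the next at 8.74. Without the respective library, C1s1 and Mbl1 kept their calls.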

How the results depend on the processing

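With DESeq2's Wald test, with its size factors in edgeR and without a filter, all 93 member comparisons kept direction and call. Library totals in place of TMM moved the median log2 fold change of all genes to -0.34 in culture against hepatoblasts, -1.0 in the adult cells against hepatoblasts and 0.62 in culture against the adult cells, and left 2 members lower in the adult cells. Calls were lost there for C1s1, C2, Hc and Cd59a in the adult cells, for C3ar1 in culture, and for C2, Cfp and Colec11 in culture against the adult cells. Calls were gained there for Hc at -1.25 and Colec10 at -1.03 in culture, and for Cfb at -1.09 in the adult cells. Uncalled values changed sign there: in culture C1s1 -0.21, C2 -0.27 and Masp2 -0.09, in the adult cells Cfi -0.17, Masp1 -0.26, Fcna -0.37, Colec11 -0.52, Cd55 -0.10 and Cr1l -0.77, and in culture against the adult cells C4b 0.15, Cfb 0.14, Cfi 0.41, Cfhr2 0.08 and Cr1l 0.44. Totals without the 50 most abundant genes gave C1s1 -0.00 and C2 -0.06, then Masp1 -0.08, Fcna -0.16, Colec11 -0.34 and Cr1l -0.59, then C4b 0.18, Cfb 0.17, Cfi 0.44, Cfhr2 0.11 and Cr1l 0.47. At 10 counts or more in every sample Cr1l was -0.04 and 0.02 against hepatoblasts and mature hepatocytes.

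With adjusted p values under 0.05 and no minimum fold change there were 10 members higher in culture. A minimum fold change inside the test (glmTreat) gave 5 lower in culture and 0 higher than in the adult cells. It ended the calls of C8g, Cfp, Masp1, Colec11 and C3ar1 in culture, of C2 and Cd59a in the adult cells, and of C2, Cfp, Colec10, Colec11, C3ar1 and C5ar1 in culture against the adult cells. Leaving out each library in turn gave 5 to 7 higher and 8 to 10 lower in culture, 18 to 21 higher and 1 lower in the adult cells, and 0 to 3 higher and 20 to 21 lower in culture than in the adult cells. The count of 0 came on leaving out any single mature library, and 1 remained without Diff. replicates 1 or 2. Sign changes were limited to uncalled genes: in culture C1s1 -0.01 to 0.21, C2 -0.05 to 0.13, C8a -0.14 to 0.09, Cd55 -0.27 to 0.70 and Cr1l -0.03 to 0.01, and in the adult cells Cfp -0.51 to 0.21 and C3ar1 -0.27 to 0.68. With hepatoblast replicate 1, Diff. replicate 1 and mature replicate 2 left out together, an alternative chosen after seeing the data, the counts were 7 and 9, 20 and 1, and 1 and 22, with C2 at -0.06 and Cd55 at 0.52 in culture and Cfp at 0.31 and C3ar1 at 0.70 in the adult cells.

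Replicate numbers were not taken to pair the samples, since not every same-numbered pair correlated above 0.1: for hepatoblasts and Diff. hepatocytes the deviations correlated at 0.32, -0.06, 0.25 and 0.18, and 3 of 4 libraries correlated best with their own number, a hint from the data and not from the design. With the replicate block, the members' calls changed only for C5ar1 in culture, to 1.86 and called (edgeR adjusted p = 0.00621), Cd55 was 0.10 and C3ar1 0.15 in the adult cells, and 1 other complement gene was higher in culture than in the adult cells.

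The further complement genes were few and changed more. At 10 counts or more in every sample, 3 were higher and 0 lower in culture, 7 higher and 0 lower in the adult cells, and 6 lower in culture than in the adult cells. At an adjusted p under 0.05, 5 were lower in culture, 2 lower in the adult cells and 1 higher in culture than in the adult cells. DESeq2 gave 0 lower in the adult cells. In culture against the adult cells, 1 was higher with DESeq2, with both kinds of library totals and, over single libraries left out, in a range of 0 to 1. Depth limits C6, Cfd, C1rb, C1s2, C7, Cd59b and the receptors. The causes of these shifts were not tested.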
